A study of Mus musculus with 12 samples.

Results

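The genes described here build and steer membrane fusion. They are the syntaxins and syntaxin-binding proteins, the VAMPs, the SNAP-25 relatives, the synaptotagmins and synaptotagmin-like proteins, and the numbered Rab GTPases, all chosen by their gene symbols. Of the 115 protein-coding genes that carry such a symbol in the mouse annotation, 98 were among the 15687 genes with values, and these 98 are the members. By family they were 14 syntaxins, 6 syntaxin-binding proteins, 7 VAMPs, 3 SNAP-25 relatives, 11 synaptotagmins, 5 synaptotagmin-like proteins and 52 Rabs. The neuronal *Snap25*, the synaptotagmins *Syt2* and *Syt4*, the granule Rabs *Rab3c* and *Rab26* and 12 others were not analysed here.

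RNA was sequenced from subcutaneous allograft tumors of mTC11, a mouse lung cancer line. Both groups were lentivirally transduced, puromycin-selected mixed clones, 6 CTL tumors with shControl and 6 tumors with *Filip1l* knockdown (KD), grown in male C57BL6/J hosts injected at 8 weeks of age. All were collected on day 24, and the host mice had an intact immune system. The study made knockdown clones with 2 shRNA sequences, and the sources used here do not say which of them the sequenced tumors carry or how many transduced populations a group comes from. A difference between transduced populations and the knockdown of *Filip1l* cannot be told apart. The labels number the tumors as biological replicates, and p-values measure the spread between them.

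A vesicle reaches its target membrane in steps. A Rab GTPase in its active form recruits motors and tethers, a SNARE on the vesicle (a VAMP) pairs with a syntaxin and a SNAP-25 relative on the target, and Sec1/Munc18 proteins of the *Stxbp* genes hold and template the syntaxin. Synaptotagmins couple fusion to calcium or, where they lack the calcium-binding residues, act elsewhere in traffic, and synaptotagmin-like proteins tie Rab27 on a granule to the plasma membrane. In secretory epithelia these genes serve mucin, surfactant and lysosome-related granules as well as apical delivery.

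Between 17834745 and 32419578 reads per tumor lay on the listed genes. Values are normalized counts, that is reads per gene divided by the size factor of the tumor, and a floor of 3 reads was on average 3.03 normalized counts. *Filip1l* itself had 1983, 2354 and 2542 normalized counts (lowest, median, highest) in CTL tumors and 1670, 1935 and 2184 in KD tumors, a log2 fold change of -0.26 (SE 0.07, limma adjusted p = 0.00998), with overlapping groups. Lung epithelial markers were low for a lung cancer line: *Nkx2-1* had a median of 14.5 normalized counts in CTL and 22.7 in KD tumors and *Sftpc* of 1.32 and 30.8, with a tumor at 0 in each group. *Sftpb* had medians of 22.0 and 156 and reached 760.0 in a KD tumor, and *Sftpa1* and *Scgb1a1* were not analysed here. The sum of 10 skeletal muscle markers ran from 2460 to 12949 in CTL and from 5423 to 95119 in KD tumors, whereas the sums for macrophages (12530 to 17077 against 11019 to 20388) and T cells (454 to 1279 against 445 to 954) overlapped widely. KD replicate 1 stood apart for many members: of the 6 KD tumors it was the highest for 36 members and the lowest for 26. CTL replicate 3 was likewise the lowest CTL tumor for 34 members and the highest for 23.

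In all, 10 members differed past the thresholds of the study, an adjusted p under 0.05 and a log2 fold change over 1 in size. *Rab27a*, *Sytl1*, *Rab17* and *Rab44* were higher in KD tumors, and *Syt13*, *Syt16*, *Syt9*, *Sytl2*, *Rab3b* and *Syt17* were lower. The 4 higher make 4.08% of the members, against 6.20% of all 15687 genes tested, and the 6 lower make 6.12% against 3.97% of all genes. At the adjusted p alone, 18 members were higher (18.4%, against 21.1% of all genes) and 26 lower (26.5%, against 20.7%). The groups did not overlap for 8 members with KD above (8.16%, against 10.6% of all genes) and 12 with KD below (12.2%, against 10.9%). The shares of higher members were slightly below and those of lower members slightly above the shares of all genes. These gaps are of few genes and were not tested. The median size of the log2 fold change was 0.20 over members and 0.25 over all genes. Summed over all 98 members, normalized counts per kilobase came to 49301 ± 1242 in CTL and 50238 ± 2001 in KD tumors (SD, n = 6 each).

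**Figure D1:**
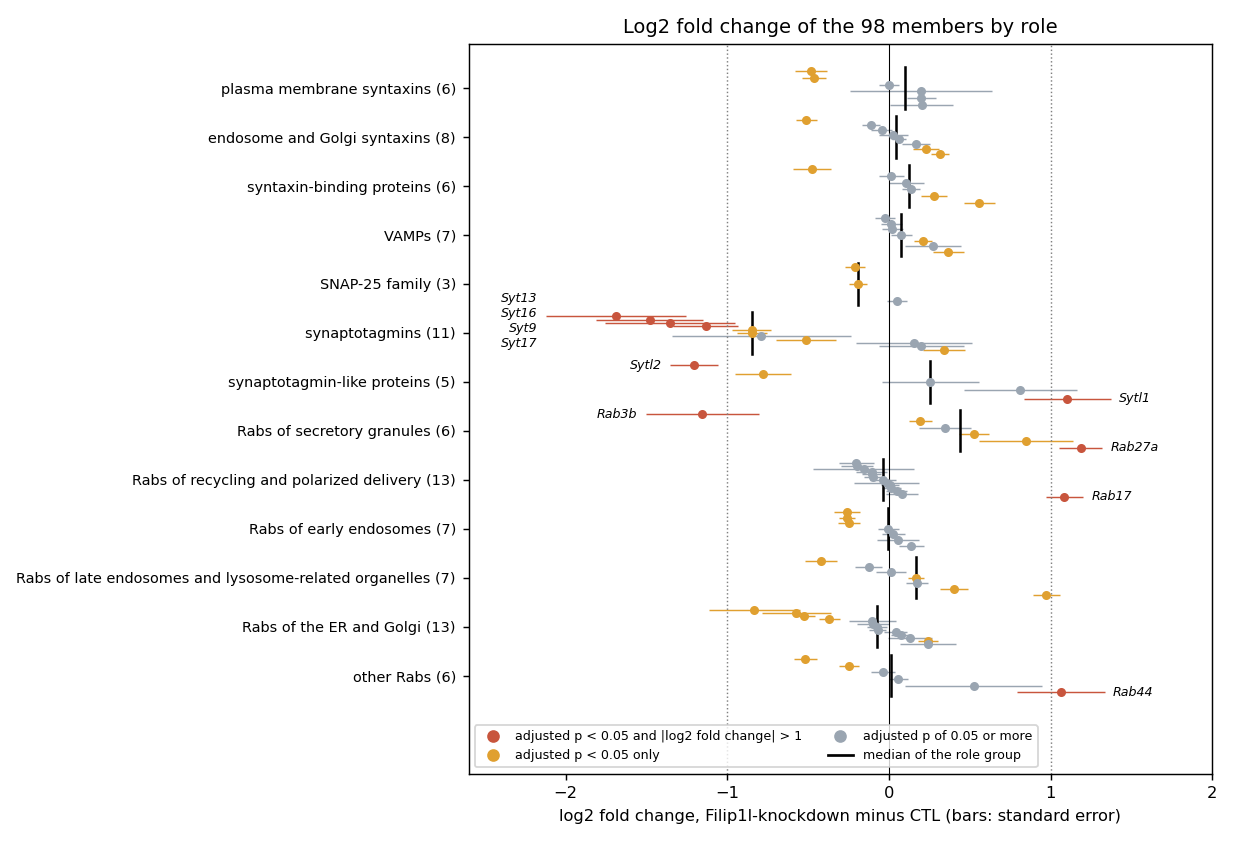
Log2 fold change, KD minus CTL (horizontal axis), of each of the 98 members with its standard error, by role (number of members in brackets). Red points pass both thresholds (dotted lines at -1 and 1) and carry their names, orange points pass the adjusted p only, grey points neither, and black ticks are medians of a role. The synaptotagmins lie farthest to the left, with a median of -0.85.

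Among the members past both thresholds, *Rab27a* and *Sytl2* had the highest mean normalized counts. *Rab27a*, which marks secretory granules and late endosomes for docking at the plasma membrane (chromosome 9, 73044854 to 73097629, + strand, mm10), had 390.0, 545 and 675 normalized counts (lowest, median, highest) in CTL tumors and 1018, 1211 and 1391 in KD tumors. Every KD tumor lay above every CTL tumor. The means were 539 ± 117 and 1209 ± 146 (SD, n = 6 each), and the log2 fold change was 1.19 (SE 0.13, limma adjusted p = 9.98e-06, exact permutation p = 0.00216, the smallest it can give). Its close relative *Rab27b* rose less, from a median of 1559 (1270 to 1943) to 2314 (1900 to 2568), and its groups overlapped (log2 fold change 0.53, SE 0.09, adjusted p = 0.000473). Per kilobase of longest annotated transcript, *Rab27a* stood at 170.0 against 231 for *Rab27b* in CTL and at 382 against 332 in KD tumors. This order depends on the lengths used, and in normalized counts *Rab27b* exceeded *Rab27a* in every tumor. Within each tumor the log2 ratio of *Rab27a* to *Rab27b* ran from -2.19 to -0.91 in CTL and from -1.08 to -0.71 in KD tumors, a mean difference of 0.66.

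The Rab27-binding synaptotagmin-like proteins moved in opposite directions. *Sytl2*, an adaptor that docks granules at the apical surface (chromosome 7, 90302252 to 90410719), had 702, 826 and 1064 normalized counts in CTL and 305, 351 and 568 in KD tumors. No KD tumor reached the lowest CTL tumor, and the log2 fold change was -1.21 (SE 0.15, adjusted p = 2.21e-05, exact permutation p = 0.00216). *Sytl1*, another Rab27 adaptor (chromosome 4, 133253090 to 133263113), had 13.6, 23.7 and 35.9 in CTL and 31.2, 47.2 and 70.9 in KD tumors. Its groups overlapped, although all 6 KD tumors exceeded the CTL median, and its log2 fold change was 1.10 (SE 0.27, adjusted p = 0.00468). That value fell just under the fold threshold without CTL replicate 3 (0.98), without CTL replicate 4 (0.98) and without KD replicate 5 (0.99), each at an adjusted p under 0.05. *Sytl5* fell from a median of 478 to 232 (log2 fold change -0.78, SE 0.17, adjusted p = 0.00235). *Sytl4*, which restrains or promotes granule fusion depending on the cell, had a log2 fold change of 0.81 (SE 0.35, adjusted p = 0.0779), and without CTL replicate 5, its highest CTL tumor, 1.10 (adjusted p = 0.00669). *Sytl3* did not pass (0.26, SE 0.30). By level, *Sytl2* was the most abundant of the 5, at 198 normalized counts per kilobase in CTL tumors, and the summed level of the 5 was 410.4 ± 72.2 per kilobase in CTL and 233 ± 21.2 in KD tumors, a difference of -43.3%.

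**Figure D2:**
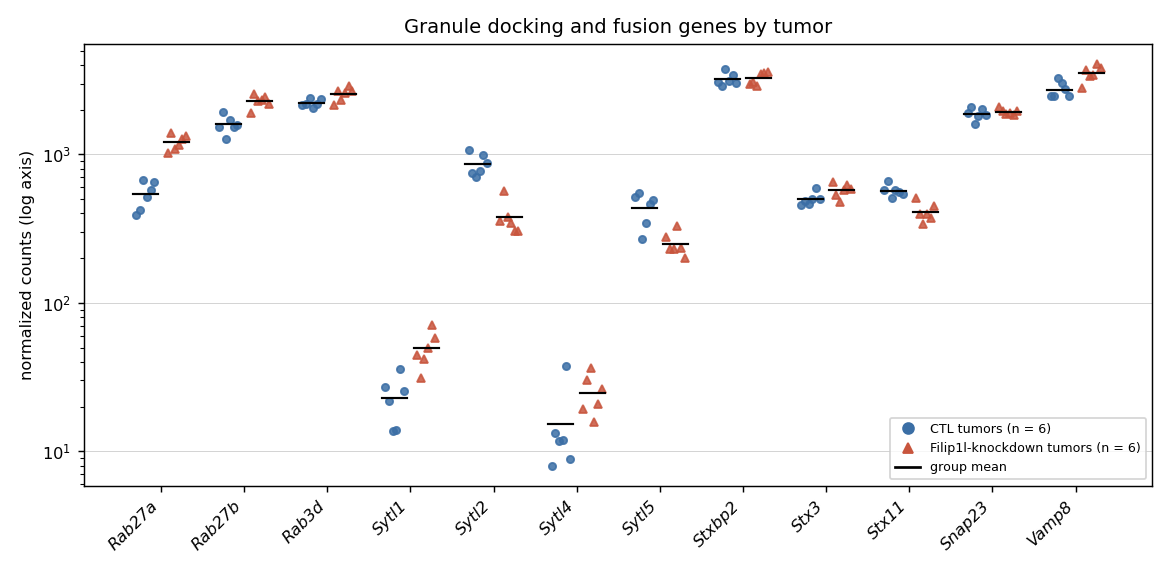
Normalized counts (log axis) of genes of granule docking and fusion in each of the 12 tumors, CTL as circles and KD as triangles, with group means as bars. *Rab27a* lies higher and *Sytl2* lower in all KD tumors than in any CTL tumor, whereas *Stxbp2* and *Snap23* overlap throughout.

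The other granule Rabs differed in level and direction. *Rab3d*, the family member of exocrine granules and the most abundant granule Rab per kilobase (571 in CTL tumors), rose by a log2 fold change of 0.19 (SE 0.07, adjusted p = 0.0426). *Rab37*, a Rab of mast cell and secretory granules, had a median of 14.99 in CTL and 27.2 in KD tumors (log2 fold change 0.85, SE 0.29, adjusted p = 0.0301). The *Rab3d* call held in 4 and the *Rab37* call in 8 of the 12 fits that leave out a tumor. *Rab3a*, of neuronal and endocrine vesicles, did not pass at 0.35 (SE 0.16, adjusted p = 0.0994). *Rab3b*, its relative in endocrine and epithelial cells (chromosome 4, 108879063 to 108943324), was lower, with 18.5, 31.6 and 70.8 normalized counts in CTL and 9.61, 13.0 and 35.3 in KD tumors. These groups overlapped, CTL replicate 4 and KD replicate 1 each lying far above their own group. Its log2 fold change of -1.15 (SE 0.35, adjusted p = 0.0169) became -0.95 without CTL replicate 4 and -1.40 without KD replicate 1.

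Among the 13 Rabs of recycling and polarized delivery, *Rab17* passed both thresholds. *Rab17*, an epithelial Rab of apical recycling and transcytosis (chromosome 1, 90958133 to 90969661, − strand), had 125, 163 and 182 normalized counts in CTL and 275, 346 and 391 in KD tumors. The groups did not overlap, and the log2 fold change was 1.08 (SE 0.12, adjusted p = 6.14e-06). The 12 other members of this role had log2 fold changes between -0.20 and 0.08, with 0 past the adjusted p in limma, edgeR or DESeq2 (at an unadjusted p under 0.05, 0 in limma and 1 in each of the others). Those 12 included *Rab11a* (0.05), *Rab11b* (-0.11), *Rab8a* (-0.04) and *Rab10* (0.02), the last the most abundant of the role at 1689 normalized counts per kilobase in CTL tumors. Of all genes, 21.1% were higher and 20.7% lower at the adjusted p in limma. In limma rescaled to the same total, *Rab11b*, *Rab13* and *Rab35* passed the adjusted p on the lower side. With chromosome medians removed *Rab11b* passed, and without CTL replicate 5 *Rab13* did. *Rab25*, the epithelial relative of Rab11, had medians of 38.1 and 35.6 normalized counts (log2 fold change -0.16, SE 0.31, adjusted p = 0.728). Within tumors, the log2 ratio of *Rab17* to *Rab25* was 1.24 higher in KD tumors on average. Of 5 general epithelial markers, *Epcam*, *Krt8*, *Krt18* and *Krt19* rose and *Cdh1* did not pass (0.01, SE 0.08), and of 9 intestinal and gastric markers with values 7 rose, while *Hnf4a* (0.14, SE 0.07) and *Tff1* (-0.43, SE 0.58) did not pass. The epithelial list summed to 135208 to 175847 normalized counts in CTL and 188323 to 352178 in KD tumors, and the intestinal and gastric list to 19831 to 25551 and 41987 to 98823. Their part in the *Rab17* and *Rab27a* results was not tested. In bulk tumors, fewer cells of a type and less RNA per cell cannot be told apart.

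*Rab44*, a large calcium-binding Rab found in mast cells and granulocytes (chromosome 17, 29114145 to 29148980), had 11.96, 18.2 and 25.0 normalized counts in CTL and 24.5, 36.1 and 68.6 in KD tumors, with a small overlap. Its log2 fold change of 1.06 (SE 0.27, adjusted p = 0.00615) was 0.90 without KD replicate 1, 0.99 without CTL replicate 3 and 0.96 without CTL replicate 4. Among markers of these cell types, all 5 neutrophil genes were higher past both thresholds, and of 5 mast cell genes only *Mcpt4* was (log2 fold change 2.61, SE 0.43), while *Tpsb2* (-0.68), *Fcer1a* (-0.61), *Cpa3* (-0.27) and *Kit* (0.07) did not pass. The summed level of 5 neutrophil markers ran from 278 to 352 normalized counts in CTL and from 742 to 1153 in KD tumors, and that of 5 mast cell markers from 546 to 2483 and from 1215 to 5394, *Mcpt4* having a mean of 332 in CTL and 2193 in KD tumors. The part of these genes in the *Rab44* and *Rab37* results was not tested.

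**Figure D3:**
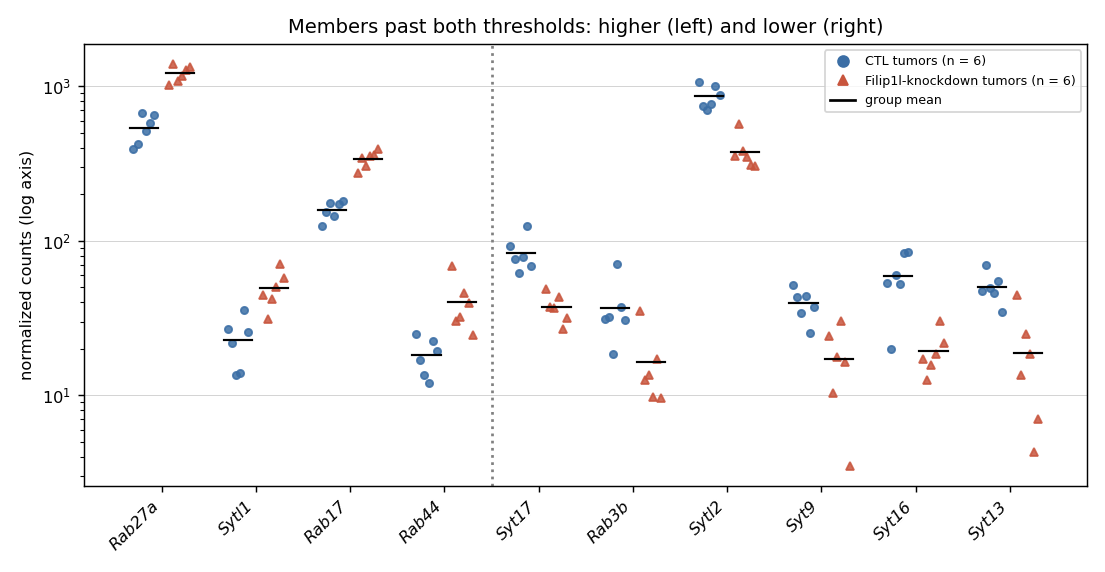
Normalized counts (log axis) of the 10 members past both thresholds in each of the 12 tumors, CTL as circles and KD as triangles, with group means as bars. The groups are fully apart for *Rab27a*, *Rab17*, *Sytl2* and *Syt17*, and the other 6 genes, all with means under 100 normalized counts, overlap in at least 1 tumor.

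Synaptotagmins were 4 of the 6 members lower past both thresholds and 7 of the 26 lower at the adjusted p. Of the 11 with values, 7 fell and *Syt7* rose, and *Syt1*, *Syt5* and *Syt15* did not pass the adjusted p. Of all genes, 20.7% were lower and 21.1% higher at the adjusted p, and 3.97% were lower past both thresholds. *Syt17*, which lacks a transmembrane segment (chromosome 7, 118380717 to 118448222), had 62.2, 77.3 and 125 normalized counts in CTL and 26.8, 37.0 and 48.4 in KD tumors, without overlap and with a log2 fold change of -1.13 (SE 0.20, adjusted p = 0.000405). *Syt13*, an atypical synaptotagmin of endocrine cells (chromosome 2, 92915098 to 92956058), had 34.4, 48.3 and 70.1 in CTL and 4.32, 16.1 and 44.4 in KD tumors. All KD tumors were under the CTL median and only KD replicate 1 was above the lowest CTL tumor, with a log2 fold change of -1.69 (SE 0.43, adjusted p = 0.00635). *Syt16*, another member without a transmembrane segment (chromosome 12, 73997661 to 74273267), had 19.9, 56.6 and 84.6 in CTL and 12.5, 17.9 and 30.3 in KD tumors. Its groups overlapped through CTL replicate 2, the lowest of its group (log2 fold change -1.48, SE 0.33, adjusted p = 0.00236). *Syt9*, a calcium sensor of dense-core vesicles (chromosome 7, 107370728 to 107548656), had 25.4, 40.3 and 52.0 in CTL and 3.49, 17.1 and 30.4 in KD tumors (log2 fold change -1.36, SE 0.40, adjusted p = 0.0143).

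A further 3 synaptotagmins of higher level fell without reaching the fold threshold. *Syt11*, which does not bind calcium and acts in endocytosis and lysosomal traffic, had 781, 902 and 945 normalized counts in CTL and 405, 468 and 584 in KD tumors (log2 fold change -0.85, SE 0.09, adjusted p = 7.14e-06). *Syt12* had 414, 448 and 505 in CTL and 185, 254 and 321 in KD tumors (-0.85, SE 0.12, adjusted p = 7.00e-05). Neither gene had a KD tumor within the CTL range. *Syt8* passed more narrowly (-0.51, SE 0.18, adjusted p = 0.0374), and in 4 of the 12 fits that leave out a tumor. *Syt7*, the slow, high-affinity calcium sensor of lysosome exocytosis, was the exception, with medians of 113 and 148 (log2 fold change 0.34, SE 0.13, adjusted p = 0.0492), and it passed in 3 of those 12 fits. Summed per kilobase, the synaptotagmins stood at 621 ± 38.0 normalized counts in CTL and 397 ± 58.0 in KD tumors, a difference of -36.1%. They were a small share of the members, 1.26% of the summed level in CTL and 0.790% in KD tumors, against 70.2% and 69.9% for the Rabs.

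KD replicate 1 was the highest KD tumor for *Syt11*, *Syt12*, *Syt13* and *Syt17*, and the lowest for *Rab27a*, *Rab27b* and *Rab17*. Of the other synaptotagmins that fell, the highest KD tumor was KD replicate 4 for *Syt8* and *Syt9* and KD replicate 5 for *Syt16*. KD replicate 1 also had the highest sum of 5 fibroblast markers among KD tumors, 181353 normalized counts. The other KD tumors had 54933 to 116825 and the CTL tumors 124524 to 213886. Most of the sum was *Col1a1* (94251 in KD replicate 1) and *Col1a2* (80056.5). In that tumor *Dcn* (3513) and *Lum* (2881) were above their highest CTL values (1632 and 1137), and *Pdgfra* (651) was within its CTL range. Its sum of epithelial markers was the lowest of the KD tumors, 188323 against 259325 to 352178. The sum of the neuronal and endocrine markers with values, *Tubb3* and *Chga*, ran from 1037 to 1576 in CTL and from 550 to 888 in KD tumors, nearly all of it *Tubb3* (log2 fold change -0.85), while the endocrine *Chga* was higher (1.97). The part of these markers in the synaptotagmin results was not tested. Without KD replicate 1, 9 members passed both thresholds, all but *Rab44* of the 10.

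No SNARE passed both thresholds in limma, nor in edgeR or DESeq2 on recovered reads. Of 24 SNAREs, 4 rose and 5 fell at the adjusted p (10 at an unadjusted p under 0.05), where 21.1% of all genes were higher and 20.7% lower, and their summed level per kilobase was 11278 ± 214 in CTL and 11768 ± 274 in KD tumors. On the vesicle side, *Vamp8*, the R-SNARE of late endosomes and regulated granules and the most abundant SNARE per kilobase, rose from a median of 2614 (2456 to 3247) to 3585 (2784 to 4060), a log2 fold change of 0.37 (SE 0.10, adjusted p = 0.0066). *Vamp3*, of recycling endosomes, rose by 0.21 with no overlap between groups (1987 to 2426 against 2458 to 2619). *Vamp2*, the synaptic and granule R-SNARE, did not pass at 0.08 (SE 0.07, adjusted p = 0.377). *Vamp5*, the direct neighbor of *Vamp8* on chromosome 6, had a log2 fold change of 0.02 (SE 0.06).

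On the target side, *Stx2* and *Stx11* fell. *Stx11*, of cytotoxic and platelet granule release, went from a median of 565 (511 to 665) to 397 (338 to 507), and *Stx2*, of the plasma membrane and of cytokinesis, from 1134 (1043 to 1260) to 799 (730 to 969). Both were without overlap, with log2 fold changes of -0.48 (SE 0.10) and -0.46 (SE 0.08). *Stx4a* (0.00, SE 0.06) and the apical *Stx3* (0.20, SE 0.09, adjusted p = 0.0848) did not pass, nor did the low *Stx1a*. In endosomes, *Stx7*, the late endosomal syntaxin, rose by 0.31 (SE 0.06, adjusted p = 0.000444), with KD tumors from 5009 to 6038 all above CTL tumors from 4225 to 4686. At the Golgi, *Stx5a* fell by 0.51 (SE 0.06, adjusted p = 2.50e-05; -0.15 and adjusted p = 0.0747 with the median of chromosome 19 removed), and *Stx18* of the ER had a log2 fold change of 0.23, past the adjusted p in 5 of the 12 fits that leave out a tumor. Of the SNAP-25 relatives, the plasma membrane *Snap23* did not pass (0.05, SE 0.06), while *Snap29*, of autophagosome fusion, and *Snap47* fell by 0.19 and 0.21.

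Of the Sec1/Munc18 partners of the syntaxins and related proteins, some rose, some fell and some did not pass. *Stxbp2* (Munc18-2), the partner of Stx3 and Stx11 in epithelia and granulocytes, had 2884, 3102 and 3739 in CTL and 2889, 3261 and 3608 in KD tumors (0.02, SE 0.08, adjusted p = 0.893). *Stxbp3* did not pass (0.14, SE 0.06, adjusted p = 0.0573). *Stxbp5* (tomosyn), which competes for syntaxins, rose by 0.28 (SE 0.08), and *Stxbp4* fell by 0.48 (SE 0.12). Taking the 17 listed genes of regulated secretion across families, 15 had values, of which 8 rose, 2 fell (*Sytl2* and *Stx11*) and 5 did not pass, where 21.1% of all genes were higher and 20.7% lower. Its median log2 fold change was 0.34, against 0.01 for all genes, for a list chosen with earlier results of these data known. Both values depend on which genes the list holds. Outside it were the lower *Rab3b* (-1.15), *Sytl5* (-0.78), *Syt9* (-1.36) and *Syt13* (-1.69) and the higher *Rab44* (1.06), among others.

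Rabs of lysosome-related organelles split. *Rab32*, of melanosomes and other lysosome-related organelles, had 463, 556 and 609 normalized counts in CTL and 913, 1097 and 1167 in KD tumors. It was just outside the fold threshold, at a log2 fold change of 0.97 (SE 0.08) with the lowest adjusted p of the members, 7.86e-07. *Rab38*, its paralog in the same organelles, lamellar bodies included, had 502, 621 and 771 in CTL and 420, 467 and 549 in KD tumors, a log2 fold change of -0.42 (SE 0.10, adjusted p = 0.00363). The log2 ratio of *Rab32* to *Rab38* within a tumor ran from -0.73 to 0.01 in CTL and from 0.95 to 1.47 in KD tumors. *Rab29*, another relative, which acts at the Golgi and lysosome, rose by 0.40 (SE 0.09) without overlap, 252 to 329 against 357 to 424. *Rab7*, of late endosomes and the most abundant member per kilobase (3667 in CTL tumors), rose by 0.17 (SE 0.05, adjusted p = 0.0129).

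Of the 7 early endosomal Rabs, 3 fell and 4 did not pass the adjusted p, where 20.7% of all genes were lower. *Rab5b*, *Rab22a* and *Rab31* fell by 0.26, 0.25 and 0.26, *Rab5b* without overlap (2902 to 3322 against 2357 to 2674), while *Rab5a* (0.03), *Rab5c* (0.14), *Rab20* (0.06) and *Rab21* (-0.005) did not pass. The median of the role was -0.005. Along the ER and Golgi, *Rab1a* rose and *Rab1b* fell, although both serve transport from the ER to the Golgi, and *Rab1b* did not pass (-0.01, adjusted p = 0.917) with the median shift of chromosome 19 removed. *Rab1a* had 6391 to 7088 normalized counts in CTL and 7221 to 8896 in KD tumors (log2 fold change 0.24, SE 0.06), and *Rab1b* 4622 to 5873 and 3653 to 4209 (-0.37, SE 0.06). *Rab34*, of ciliary and Golgi traffic, and *Rab23*, an inhibitor of Hedgehog signaling at the cilium, fell by 0.52 each, with no overlap. *Rab34* had 1425 to 1691 in CTL and 974 to 1230.3 in KD tumors, *Rab23* 615 to 706 and 401 to 511. *Rab12* fell by 0.25. The low *Rab36* and *Rab6b* also fell, by 0.83 and 0.57, past the adjusted p in 7 and 4 of the 12 fits that leave out a tumor.

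In all, 5 pairs of related members, chosen after their values were seen, were compared as log2 ratios within each tumor. Because they were chosen for their divergence, the ratios are a description with no test. The mean log2 ratio in KD tumors minus that in CTL tumors was 1.39 for *Rab32* to *Rab38*, 0.61 for *Rab1a* to *Rab1b* and 2.31 for *Sytl1* to *Sytl2*. The ratio of *Rab1a* to *Rab1b* ran from 0.24 to 0.55 in CTL and from 0.90 to 1.16 in KD tumors, a contrast that includes the shift of chromosome 19, where *Rab1b* lies. The ratio of *Sytl1* to *Sytl2* ran from -5.69 to -4.76 and from -4.14 to -2.10, and that of *Rab17* to *Rab25* from 1.81 to 3.34 and from 2.81 to 4.28.

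**Figure D4:**
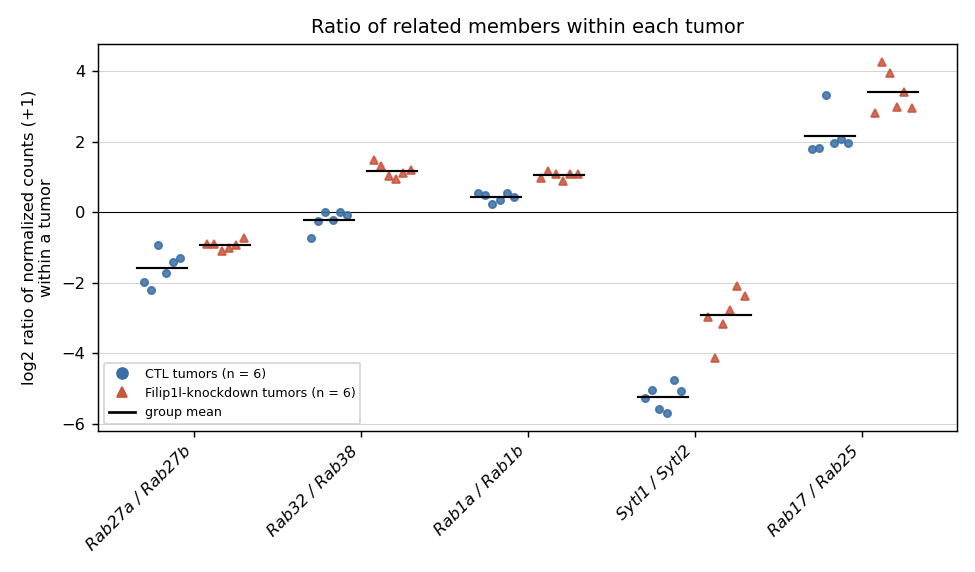
Log2 ratio of normalized counts (plus 1) of 5 pairs of related members within each tumor, CTL as circles and KD as triangles, with group means as bars. The groups are apart for *Rab32* to *Rab38*, *Rab1a* to *Rab1b* and *Sytl1* to *Sytl2*, and CTL replicate 3 reaches the KD range in the other pairs.

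Members on 3 chromosomes were measured against a shift of their whole chromosome. The median gene of chromosome 14 differed by 0.38 on the log2 scale (KD minus CTL), that of chromosome 19 by -0.36 and that of chromosome 8 by -0.20, and the next largest shift was -0.05 (chromosome 15). With these medians removed, *Rab1b* on chromosome 19 went from -0.37 to -0.01 (adjusted p = 0.917) and *Stx5a* from -0.51 to -0.15 (adjusted p = 0.0747). *Syt12* kept a log2 fold change of -0.49 (adjusted p = 0.00431). In the other direction, *Stx3* went from 0.20 to 0.56 (adjusted p = 0.000172), *Syt7* from 0.34 to 0.70 (adjusted p = 0.000588), *Rab3a* on chromosome 8 from 0.35 to 0.55 (adjusted p = 0.00928) and *Stxbp2* from 0.02 to 0.21 (adjusted p = 0.0123). *Rab2b* on chromosome 14 went from -0.10 to -0.48 (adjusted p = 0.0205). None of the 10 members past both thresholds lies on these chromosomes, and the same 10 passed with the medians removed. Why these chromosomes differ was not tested.

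**Figure D5:**
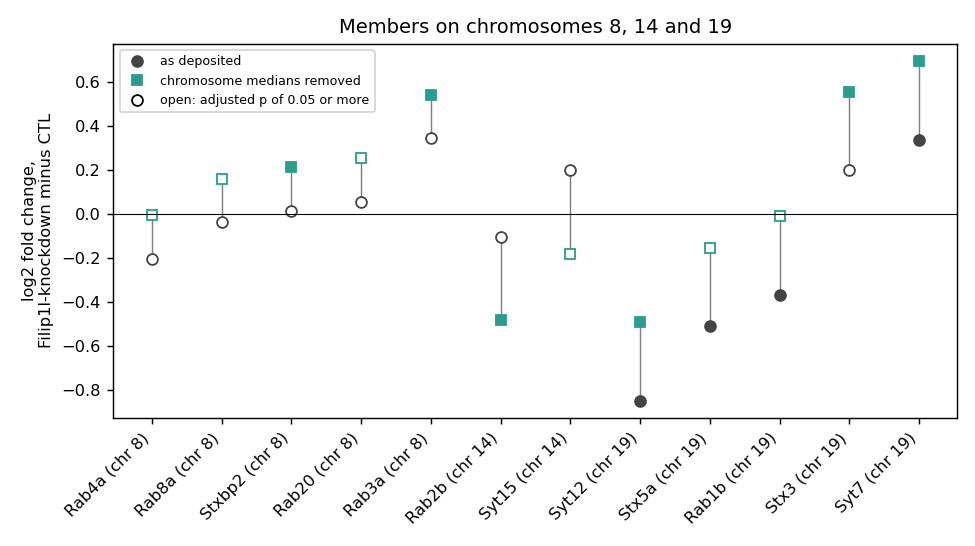
Log2 fold change, KD minus CTL, of the 12 members on chromosomes 8, 14 and 19, as deposited (circles) and with the median of each chromosome removed (squares), open symbols having an adjusted p of 0.05 or more. *Rab1b* and *Stx5a* lose and *Stx3*, *Stxbp2*, *Rab3a* and *Rab2b* gain an adjusted p under 0.05.

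Genes that serve the same machinery under other names were listed for comparison, and 66 of 81 had values. Of these, *Chga*, the granule protein chromogranin A, and *Exoc3l4*, a relative of the exocyst subunit Exoc3, were higher past both thresholds, and *Unc13c* and *Cplx2*, which prime and clamp SNARE complexes, were lower. *Chga* was near the floor in CTL tumors (0.972 to 10.6 normalized counts, against 13.8 to 31.3 in KD tumors), and *Exoc3l4* went from 253 to 419 in CTL to 503 to 821 in KD tumors (log2 fold change 1.12, SE 0.14). *Cplx2* fell by 1.15 (SE 0.15) and *Unc13c* by 1.70 (SE 0.33). At the adjusted p, 15 of the 66 were higher and 15 lower, near the 21.1% and 20.7% of all genes. Of 4 SNARE disassembly genes, 3 were higher at the adjusted p, *Nsf* by 0.45 (SE 0.08), *Napg* by 0.28 (SE 0.07) and *Napa* by 0.20 (SE 0.08). *Napa* passed narrowly (limma adjusted p = 0.0493) and its groups overlapped, and the low *Napb* did not pass (-0.69, SE 0.31). The myosins that carry Rab27 and Rab11 vesicles split, *Myo5a* (-0.85, SE 0.13) and *Myo5c* (-0.78, SE 0.09) being lower and *Myo5b* (0.43, SE 0.08) higher. Melanophilin, the adaptor between Rab27a and myosin Va, did not pass (*Mlph* 0.00, SE 0.07). *Rabggta*, a subunit of the enzyme that attaches the lipid anchor of Rabs, rose by 0.60 (SE 0.08) and its partner *Rabggtb* did not pass (-0.14, SE 0.06). *Rabggta* lies on chromosome 14, whose median gene differed by 0.38, and *Rabggtb* on chromosome 3 (0.03). These chromosome shifts were not removed from the 2 values.

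The 250 bases before the start of a gene were read for 77 of the 98 members from RefSeq (GRCm38.p6), and 4 short motifs were searched on both strands, where matches could overlap. They were the GC box GGGCGG, the TATA box TATAAA, the E-box CACGTG and the CDX half-site TTTATG. A GC box was found in 63.6% of these 77 members and 32.9% of all 27025 promoters, a TATA box in 3.90% and 13.0%, an E-box in 9.09% and 6.05%, and TTTATG in 9.09% and 11.1%. The 2 sets are unlike, since all promoters include those of genes without values here. Their median GC content was 60.4% for members and 52% for all promoters. Among the members past the adjusted p, a GC box stood in 5 (41.7%) of the 12 higher and 16 (80.0%) of the 20 lower whose promoter was read. The shares were 8.33% and 5.00% for a TATA box, 0% and 5.00% for an E-box and 16.7% and 10.0% for TTTATG. These contrasts are of few genes and were not tested. The promoters of *Rab27a* and *Rab17*, the higher members with the largest separated changes, and of the lower *Rab3b* are shown, since they differ in these motifs. Capitals mark matches, which are a description of letters and not a site of binding. *Rab27a* (chr9:73044560-73044809, + strand, the first of its 2 RefSeq starts) holds a GC box, *Rab17* (chr1:90967668-90967917, − strand, inside an intron of the longer transcripts in GENCODE) none of the 4, and *Rab3b* (chr4:108878820-108879069, + strand) 4 GC boxes, a TATA box and TTTATG.
Rab27a: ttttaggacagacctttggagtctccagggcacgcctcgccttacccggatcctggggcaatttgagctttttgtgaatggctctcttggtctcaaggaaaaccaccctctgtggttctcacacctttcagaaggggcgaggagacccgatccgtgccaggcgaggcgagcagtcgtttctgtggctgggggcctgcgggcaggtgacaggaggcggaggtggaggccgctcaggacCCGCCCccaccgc
Rab17: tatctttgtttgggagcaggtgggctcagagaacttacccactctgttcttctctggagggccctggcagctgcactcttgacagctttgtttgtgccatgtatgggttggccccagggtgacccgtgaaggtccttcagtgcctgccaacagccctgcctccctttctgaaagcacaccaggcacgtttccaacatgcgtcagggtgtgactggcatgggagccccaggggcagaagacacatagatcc
Rab3b: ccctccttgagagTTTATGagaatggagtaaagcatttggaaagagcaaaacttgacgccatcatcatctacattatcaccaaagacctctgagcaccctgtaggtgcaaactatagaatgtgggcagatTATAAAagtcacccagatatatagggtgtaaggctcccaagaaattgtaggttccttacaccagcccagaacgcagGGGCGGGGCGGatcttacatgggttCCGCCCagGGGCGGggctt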

How the data were processed

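Tumor RNA was sequenced as poly(A)-selected, paired-end libraries. Per the labels and the methods of the study, the authors trimmed reads with Trimmomatic 0.36, aligned them to mm10 with STAR 2.5.2b, counted them with featureCounts (Subread 1.5.2) and divided them by DESeq2 size factors, and deposited these normalized counts, a signal that is not corrected for length. The methods state that unique gene hits were counted, and a strand setting is not given in the sources used here. Symbols, positions and lengths came from GENCODE vM21, the length of a gene being that of its longest transcript. All values were whole multiples of 1 step per tumor (100% within 0.05 reads), which gave reads.

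The 12 tumors entered 1 limma 3.58.1 fit with a mean-variance trend on log2(normalized count + 1), after a filter at a mean of 5 that removed no gene, with Benjamini-Hochberg adjustment over 15687 genes (R 4.3.3). Fold changes are on that scale, which understates changes of low genes. Permutation tests were exact and two-sided over all regroupings of the 12 tumors. Named were *Filip1l*, members past both thresholds, a list of 17 secretion genes, the most abundant member of each role and other machinery genes past both thresholds. All other genes and the pairs were named after their values were seen. Some members that the rule names are counted but not reported here. The members and all lists, cell type markers included, were chosen with earlier results of these data known. Alternatives were 2 pseudocounts, 2 filters (none, which repeats the main fit, and a mean of 20), 2 scalings and no trend. Others were a replicate block, chromosome medians and leaving out each tumor. After seeing the data, edgeR 4.0.16 and DESeq2 1.42.0 on the recovered reads were added. Those called 1015 and 1040 genes higher and 620 and 612 lower.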

Additional observations from a re-analysis of the deposited data

Results flagged for a closer look

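In 118 groups of 6 tumors, the 2 groups of each of 59 named genes, the highest or lowest tumor was checked for a gap to its neighbor, as a share of the range of its group, above Dixon's 95% critical value. Chance gives about 1 such gap in 20 groups, and 9 were found (7.63%). CTL replicate 4 was the highest of its group for *Rab7* (8392 normalized counts, next 7965) and for *Rab3b* (70.8, next 37.3). KD replicate 1 was the highest KD tumor for *Rab3b* (35.3, next 17.3), and KD replicate 2 for *Sytl2* (568, next 380). CTL replicate 5 was the highest CTL tumor for *Stx3* (595, next 503) and *Sytl4* (37.3, next 13.3). CTL replicate 3 was the lowest CTL tumor for *Rab25* (16.5, next 35.0) and the highest for *Cplx2* (1451, next 934) and *Exoc3l4* (419, next 313). The cause of these gaps was not tested.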

How the results depend on the processing

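Across 23 alternatives, the members past both thresholds on the lower side numbered 4 to 6, those past the adjusted p 15 to 22 higher and 23 to 29 lower. Members called higher numbered 2 rather than 4 at a pseudocount of 8, where *Sytl1* (0.90) and *Rab44* (0.84) fell under the fold threshold together with *Rab3b* (-0.87) and *Syt9* (-0.99), and ranged from 2 to 5 when 1 tumor was left out (2 without CTL replicate 4). Other machinery genes called higher numbered 1 with the filter at a mean of 20, which removes *Chga*. With the replicate block 10 members were called, the same 10, and 42 rather than 44 passed the adjusted p. Same-numbered tumors did not deviate together (correlations from -0.27 to 0.10), so no pairing by number was seen. A shared batch could not be checked this way. edgeR and DESeq2 on recovered reads called the same 10. Signs turned for 4 genes near 0. *Stx4a* was -0.0104 at the same 75th percentile, -0.0405 at the same total, -0.000337 with chromosome medians removed, -0.0119 in edgeR and -0.0440 to 0.0239 when 1 tumor was left out. At the same total *Stxbp2* was -0.0259 and *Rab10* -0.0258, and leaving out 1 tumor gave -0.0150 to 0.0599 and -0.0199 to 0.0400. *Rab25* ranged from -0.360 to 0.0123. Depth limits members under 50 normalized counts, whose median standard error was 0.34 against 0.07 above 500.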
